A study of Ceratina calcarata with 12 samples.

Results

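The regions described here are 200 bp windows of the Ceratina calcarata genome that are dense in methylated CpGs. The genome was cut into fixed 200 bp windows along each scaffold, and a window was a dense window when it held 10 or more CpGs that the authors list as methylated and that had between 1 and 170 reads in all 6 bisulfite pools. No limit on the level was set beyond that listing, which itself asks for methylation above the background of the assay. There were 6079 dense windows among 74061 windows with at least 1 such CpG, and among 45303 windows with at least 2, which are the windows tested below. The other 39224 tested windows held 2 to 9 CpGs. Dense windows were thus 13.4% of tested windows, but they held 77478 of the 273427 CpGs kept (28.3%). The median dense window held 12 CpGs and the fullest held 30.

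CpG methylation is the addition of a methyl group to the cytosine of a CG pair, which DNA methyltransferases copy onto the new strand after replication. In bees and other Hymenoptera it is sparse over the genome as a whole and lies mainly in the bodies of genes, above all in exons of genes that are expressed in most cells. Bisulfite turns unmethylated cytosine into a base read as thymine, so the share of reads that keep the cytosine is the methylation level of that CpG. In a pool of heads a level between the extremes can come from cells, alleles or bees that differ, and these cannot be told apart.

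The study asked how losing the mother changes gene expression and DNA methylation in her adult offspring. C. calcarata is a small carpenter bee that nests in dead stems of Rhus typhina (sumac), where the mother guards and grooms her brood. Nests were collected in Durham and reared in the laboratory, with the mother left in place (care) or taken out after she had provisioned the eggs (no care). Each group had 3 bisulfite pools, each made of DNA from the heads of 9 newly eclosed adult females, and 3 separate RNA pools of 3 heads each, with bees of a pool drawn from different nests. All mothers came from nests collected in the field, and a whole head holds many tissues, so a level is an average over them. The spread between pools is a spread between groups of 9 bees and not between single bees.

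Reads were plentiful in dense windows. The mean coverage of their CpGs was 26.8, 50.2 and 26.1 reads in care pools 1, 2 and 3 and 35.8, 30.7 and 30.9 reads in no care pools 1, 2 and 3. In the other tested windows it was 15.1, 27.1 and 14.8 reads in care and 22.9, 20.9 and 18.5 reads in no care. Care pool 2 was the deepest of the 6, and CpGs in dense windows were covered more deeply than other CpGs in every pool. Summed over the 6 pools, the median dense window had 2310 reads and the median other window 352. In the unmethylated lambda DNA added to each pool, between 0.482% and 0.628% of reads were called methylated, which is the background of the assay. A CpG was listed only if it was methylated above that background in at least 1 pool, so the listing itself rests on reads, and a deeply covered CpG can be listed at a lower level than a thinly covered one.

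Dense windows were mostly of intermediate level. The level of a window in a pool was taken as the methylated reads over all reads of its CpGs. Averaged over the 6 pools, the median level of dense windows was 24.6%, with quartiles of 13.3% and 42.2% and extremes of 2.93% and 89.2%. Levels of 5 to 20% were found in 2361 dense windows (38.8%) and levels of 20 to 50% in 2631 (43.3%). The extremes were thinly filled, with 129 dense windows (2.12%) below 5% and 20 (0.329%) at 80% or above. In the windows of 2 to 9 CpGs the same end classes held 12.8% and 4.11%, and the class from 20 to 50% held 23.7%.

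The level rose with the number of CpGs in sparse windows and then levelled off. The median level was 12.4% in windows of 2 to 4 CpGs and 23.8% in windows of 5 to 9. Among dense windows it was 24.97% at 10 to 12 CpGs, 25.7% at 13 to 15 and 22.2% at 16 to 30. On either side of the limit that defines a dense window, the 1846 windows with 9 CpGs had a median level of 26.8% and the 1435 windows with 10 had 24.4%. The median thus rose with each CpG up to 9 and was lower at 10.

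**Figure D1:**
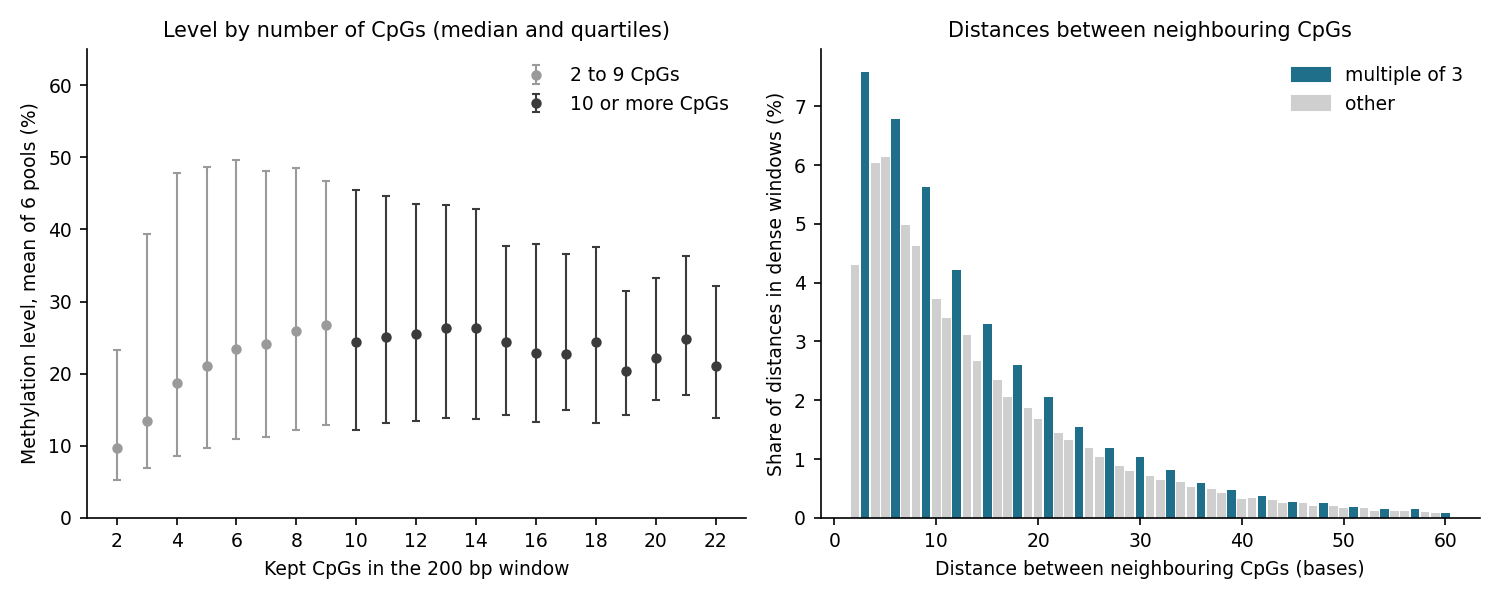
The left panel plots the methylation level (median of windows, bars to the quartiles) against the number of kept CpGs in a window, for numbers found in at least 20 windows; the median climbs from 9.75% at 2 CpGs to 26.8% at 9 and then stays between 20.3% and 26.3% up to 22 CpGs. The right panel plots the share of distances between neighbouring CpGs of dense windows at each distance from 2 to 60 bases, with multiples of 3 in blue, which stand above their neighbours from 3 bases onward.

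Within a pool, dense windows had a higher mean level than the other tested windows. The mean over dense windows was 29.4%, 29.8% and 29.2% in care pools 1, 2 and 3 and 28.6%, 27.8% and 28.6% in no care pools 1, 2 and 3. Over the other windows it was 27.2%, 27.5% and 26.8% in care and 26.4%, 26.1% and 26.6% in no care. Dense windows were higher in 6 of 6 pools, by 2.13 ± 0.245 percentage points (SD, n = 6), and the exact sign-flip permutation test over the pools gave p = 0.031, two-sided, the smallest that 6 pools allow. All 6 pools are read over the same windows, whose listing rests on these pools, so this p measures agreement between pools alone. The sign of the gap between dense and other windows depends on what is averaged: with the mean of single CpG levels in place of window levels, it was -0.0862 points. By CpG, 51.1% of those in dense windows were below 20%, against 55.9% elsewhere, and 5.99% were at 80% or above, against 9.38%. The size of the gap also moved with the settings: it was 3.59 points with dense windows of at least 8 CpGs, 1.28 with at least 12, and 3.27 where CpGs with fewer than 5 reads in any pool were left out. Coverage moved with density, as given above.

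A dense window was rarely uniform. The median dense window had a CpG at 5.57% and another at 56.8%, and the SD among its CpGs was 14.9 points. In 2877 dense windows (47.3%) the lowest and the highest CpG were more than 50 points apart, against 17.7% of the other windows, which have fewer CpGs to span a range. Levels were nevertheless alike between close neighbours. Pearson's r of the levels of neighbouring CpGs, a description over pairs of sites that share reads, was 0.834 at 2 to 5 bases apart (17179 pairs), 0.839 at 6 to 10, 0.791 at 11 to 20, 0.623 at 21 to 50 and 0.364 at 51 to 100 bases (1589 pairs). The median difference in level grew over the same classes from 6.48 to 13.2 points. These pairs come from all dense windows, so differences in level between windows also enter r. Whether close neighbours were alike within the windows that spanned a wide range was not tested.

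Distances between neighbouring CpGs were more often multiples of 3 bases than 1 base shorter or longer, in dense windows and in the others. The distance between neighbouring CpGs had a median of 11 bases (quartiles 6 and 19) in dense windows and 22 (10 and 44) in the others. Adjoining CpG pairs, 2 bases apart, made up 4.297% of the distances in dense windows and 1.53% elsewhere. Dense windows were picked for many CpGs in a fixed width, and that rule alone shortens distances and favours close pairs. Neither contrast is thus a finding apart from the rule. Whether adjoining pairs exceed what the rule gives was not tested. Among the 53446 distances of 6 to 59 bases in dense windows, 42.2% were multiples of 3, while 30.4% left a remainder of 1 and 27.3% a remainder of 2. In the other windows these shares were 38.8%, 31.3% and 29.9%. The counts also fell with distance, from 4847 at 6 bases to 58 at 59 in dense windows and from 4151 to 572 in the others. Such a fall alone puts more distances in the class that starts at 6, and more so where it is steeper. The shares thus overstate the excess of multiples of 3 and its contrast between the 2 kinds of window. The codon is 3 bases long, but exons were not placed for these windows, and whether the spacing follows reading frames was not tested.

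Among the dense windows themselves, the 3 with the most CpGs were of low to middle level. A window on scaffold48.2 from 3116801 to 3117000 held 30 CpGs, as did one on scaffold59.2 from 15601 to 15800. Their levels averaged 18.4% and 15.3%, and neither was called between the groups (adjusted p = 0.412 and 0.357 in the logistic regression over all tested windows). The third, on scaffold154.2 from 255801 to 256000, held 28 CpGs at a mean level of 17.7%. The extremes of level were found at 10 or 11 CpGs, near the lower limit of density. The lowest were windows on scaffold90 from 239401 to 239600 and on scaffold43 from 901401 to 901600, at 2.93% and 2.95%, in both of which no CpG was above 5.61%. The highest were windows on scaffold543.2 from 3001 to 3200 and on scaffold293.2 from 279801 to 280000, at 89.2% and 88.0%. The scaffold543.2 window had only 28 reads in care pool 1, at a level of 96.4%, which counts in the mean like the other pools.

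Dense windows lay in clusters along the scaffolds. They were found on 256 of the 693 scaffolds with a tested window. Of the 6079, 4144 had another dense window directly beside them (68.2%, 95% Wilson interval 67.0 to 69.3, counting error only), against 21.5% of all tested windows and 14.2% of the windows with 2 to 9 CpGs. Joined end to end they formed 3291 runs, of which 1935 were single windows and 193 had at least 5 windows, together 1091 windows. From one dense window to the next on the same scaffold the median distance was 400 bases. The next was within 1000 bases in 62.0% of cases and more than 10000 bases away in 14.9%.

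Density differed between scaffolds more than level did. Among the 31 scaffolds with at least 50 dense windows, these made up from 7.80% of tested windows (scaffold127.2) to 50.9% (scaffold435.2). Per Mb, up to the last listed CpG, there were from 35.1 dense windows on scaffold39.2 to 621 on scaffold435.2. The median level over the same 31 scaffolds stayed between 19.5% and 32.8%.

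Levels rose and fell along the scaffolds over short distances. The levels of dense windows side by side had an r of 0.57 (2788 pairs) and differed by a median of 9.89 points. At 400 bases r was 0.07, and it was -0.26 at 600 bases, -0.35 at 800 and -0.37 at 1000 (459 pairs). At 1800 bases it was 0.12. Dense windows about 1000 bases apart thus tended to lie on opposite sides of the mean level. These are descriptions over windows, many of which enter several pairs.

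The lowest window of a run was mostly at an end. Among the 116 runs of exactly 5 windows, the mean level by position was 24.6%, 30.8%, 33.1%, 29.9% and 24.4%. The lowest window was the first or the last in 101 of these runs (87.1%), where end positions are 40% of the windows of such a run. The highest window was at an end in 39 (33.6%). In runs of 3, 4 and 6 windows the lowest was at an end in 89.1%, 88.9% and 88.2%, where 66.7%, 50% and 33.3% of windows are at an end. In runs of 3 and 4 the highest was also often at an end (76.8% and 58.7%), and the mean level of runs of 3 was flat, at 29.2%, 29.5% and 28.2%. Within a run of 5 the lowest and highest windows differed by a median of 37.4 points.

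**Figure D2:**
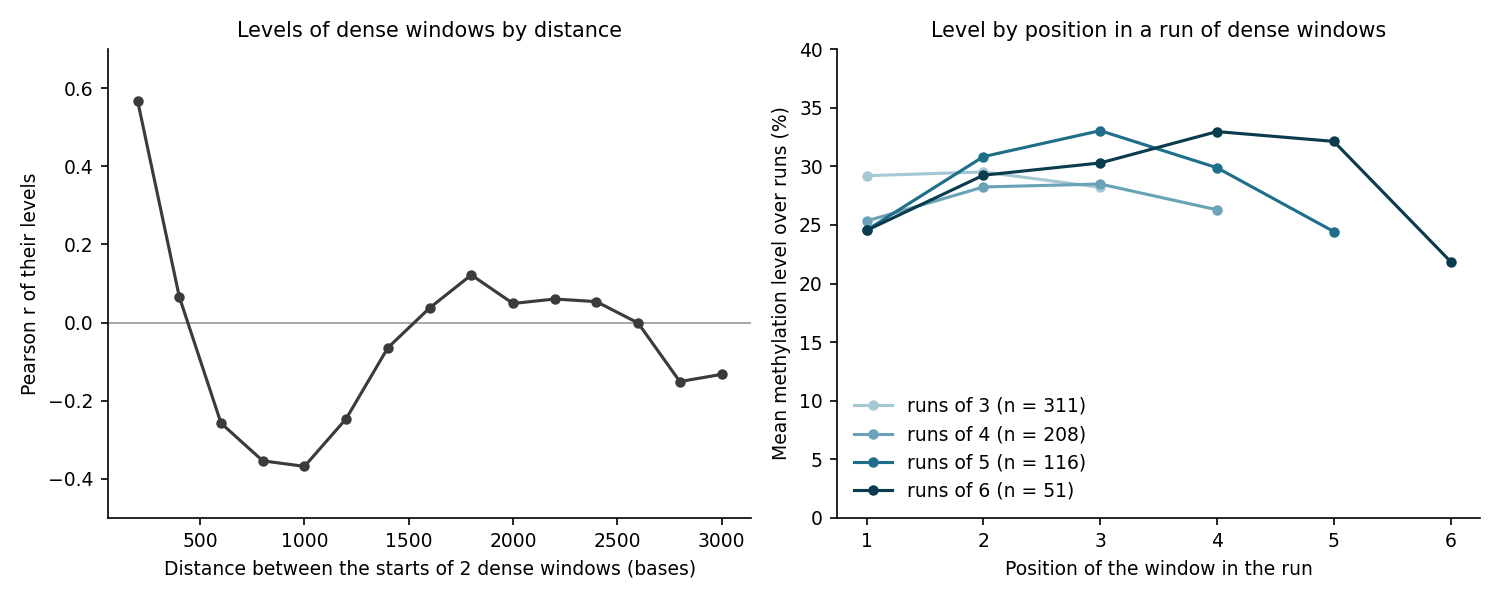
The left panel plots Pearson's r between the levels of dense windows against the distance between their starts, in bases, and falls from 0.57 at 200 to -0.37 at 1000. The right panel plots the mean level by position in runs of 3, 4, 5 and 6 adjoining dense windows (311, 208, 116 and 51 runs), where the ends of runs of 5 lie at 24.6% and 24.4% and the middle at 33.1%.

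The 2 longest runs show such gradients window by window. The longest, on scaffold86.2 from 325801 to 328000, had 11 windows and 174 CpGs. From its first window to its last the levels were 57.7%, 35.6%, 23.7%, 8.06%, 11.6%, 7.95%, 12.5%, 10.9%, 16.9%, 22.5% and 36.3%. This run was thus high at both ends and low across its middle, unlike most runs of 5. The second, on scaffold294.2 from 205401 to 207400, had 10 windows and 138 CpGs. Its levels were 6.50%, 4.07%, 8.25%, 13.3%, 26.5%, 16.9%, 29.9%, 45.1%, 42.3% and 27.8%. From low levels on one side it climbed unevenly, with a dip to 16.9%, to a peak of 45.1%, and then fell to 27.8%. None of the windows in these runs was called between the groups. In the low middle of the first run, in its windows 4 to 7, the no care minus care differences were 0.63, 0.93, 0.96 and -0.06 points.

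The pools resembled each other closely. Over dense windows, Pearson's r between the levels of 2 pools was 0.964 to 0.972 within a group and 0.964 to 0.976 between the groups. The median SD between the 3 pools of a group was 2.27 points in care and 2.24 in no care, against 4.56 and 4.03 in windows of 2 to 9 CpGs. As a root mean square over windows, which weighs wide windows more than the median does, the SD was 3.24 points in dense windows and 7.40 in the others, where read sampling alone would give 2.44 and 6.36. On that scale the SD beyond sampling was 2.12 points in dense windows and 3.78 in the others, and it fell steadily from 4.26 in windows of 2 to 4 CpGs to 1.78 in windows of 16 to 30.

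Relative to sampling the values were higher in dense windows, but this ratio grows with reads for the same extra spread, and dense windows have more reads. The chi-square per degree of freedom of methylated reads among pools within groups is about 1 where pools differ by sampling alone. Its median was 1.45 in dense windows and 1.13 in the others. It was above 2 in 2004 dense windows (33.0%) and in 19.6% of the others. The logistic regression used for the calls below takes sampling as the sole source of spread.

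The 2 dense windows with the largest spread differed strongly between pools of the same group. On scaffold149.2 from 401 to 600 (13 CpGs) the levels were 0.455%, 16.9% and 21.9% in care pools 1, 2 and 3 and 14.1%, 1.80% and 2.80% in no care. Within each group 1 pool stood apart from the other 2, the groups overlapped, and the chi-square per degree of freedom was 24.4. The window was called higher in care all the same (difference -10.4 points, logistic regression, adjusted p = 4.46e-10), while the exact permutation test of its 6 levels gave p = 0.4. On scaffold316.2 from 12601 to 12800 (12 CpGs) the levels were 14.4%, 29.7% and 23.5% in care and 16.9%, 14.8% and 27.0% in no care, with a chi-square per degree of freedom of 13.1. This window was not called (adjusted p = 0.217).

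Dense windows were slightly less methylated in no care than in care. The mean over dense windows was 29.4% ± 0.325 with care and 28.3% ± 0.426 without it (SD, n = 3 each), a difference of -1.13 points. All 3 care pools were above all 3 no care pools, and the two-sided exact permutation test gave p = 0.1, the smallest that 3 against 3 allows. Over the other windows the means were 27.1% ± 0.323 and 26.4% ± 0.226 (SD, n = 3 each), a difference of -0.775 points with the same p of 0.1 in the exact permutation test. Dense windows exceeded the others by 2.30 ± 0.0954 points in the care pools and by 1.95 ± 0.221 points in the no care pools (SD, n = 3 each), and the exact permutation test of these values again gave its smallest p of 0.1. Background methylation of lambda DNA was also higher in care (0.521% to 0.628%) than in no care (0.482% to 0.512%), and with the levels corrected for it the difference over dense windows was -1.08 points.

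**Figure D3:**
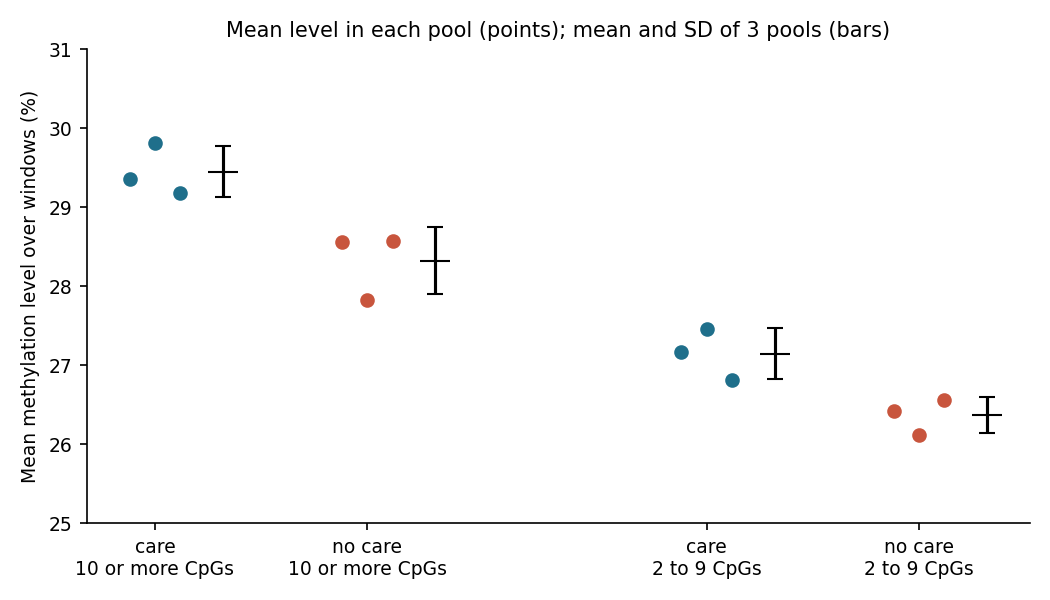
Mean methylation level over dense windows (10 or more CpGs) and over the other tested windows (2 to 9 CpGs) in each of the 6 pools, as points, with the mean and SD of 3 pools as bars; the axis starts at 25%. In both kinds of window the 3 care points, 29.2% to 29.8% in dense windows, lie above the 3 no care points, 27.8% to 28.6%.

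The shift was spread over many windows. Of the 6079 dense windows, 4130 were lower in no care (67.9%), against 57.9% of the other windows. With more reads in dense windows, a shift of the same size puts a larger share of them on 1 side. Windows of like reads are not compared for these shares. The median difference over dense windows was -1.07 points. It grew with the level, from -0.53 points in dense windows below 10% to -0.81 at 10 to 20%, -1.30 at 20 to 40%, -1.96 at 40 to 60% and -2.005 above 60%. On each of the 31 scaffolds with at least 50 dense windows the mean difference was negative, between -1.93 and -0.792 points. No care pool 2 was the lowest of the 6 in 1632 dense windows and care pool 2, the deepest, in 407. Without no care pool 2 the overall difference was -0.881 points.

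Windows in which the groups did not overlap were mostly higher in care. All 3 care pools were above all 3 no care pools in 759 dense windows (12.5%), against 7.85% of all tested windows. The reverse held in 164 (2.70%), against 3.82% of all tested windows. The share was above that of all windows in the care direction and below it in the other. Reads differ between dense and other windows here too, and windows of like reads are not compared.

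The logistic regression called 73 dense windows (1.20%) at an adjusted p below 0.01 and a difference above 5 points, against 0.32% of all tested windows. Of these, 68 were higher in care (1.12%, against 0.267% of all tested windows) and 5 were higher in no care (0.0823%, against 0.053%). Dense windows have more reads, and the test gains power with reads. Among windows with 1000 to 2000 reads over the 6 pools, 20 of 1947 dense windows were called (1.03%) and 34 of 4777 others (0.712%). Among those with 2000 to 4000 reads, 46 of 2957 dense windows were called (1.56%) and 4 of 563 others (0.710%). Among those with 500 to 1000 reads no dense window was called, of too few to give an order (counts in the last paragraph). Windows with more than 4000 reads are not compared here. By level, 28 of the called dense windows were at 20 to 40% and 24 at 40 to 60%.

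The count depended on how the spread between pools was treated and on 2 of the pools. With a single overdispersion for all windows 8 dense windows were called, all higher in care, against 0.0221% of all tested windows. With limma on logit levels 0 were called, as among all tested windows (0%), with 92 dense windows at an unadjusted p below 0.05 (1.51%, against 6.004% of all tested windows). With an overdispersion estimated in each window 0 were called, with 260 at an unadjusted p below 0.05 (4.28%, against 2.05% of all tested windows). Both shares of dense windows were below 5%. The overdispersion of a window was held at 1 or above, and the share that each fit gives without a difference was not tested. Without care pool 2 the count was 25, of which 17 were higher in care and 8 in no care, and without no care pool 2 it was 36, of which 30 were higher in care. With the 6 libraries centred on 1 level there were 48 calls, 40 higher in care and 8 in no care. A single called window, on scaffold78.2, kept its call without each pool in turn.

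**Figure D4:**
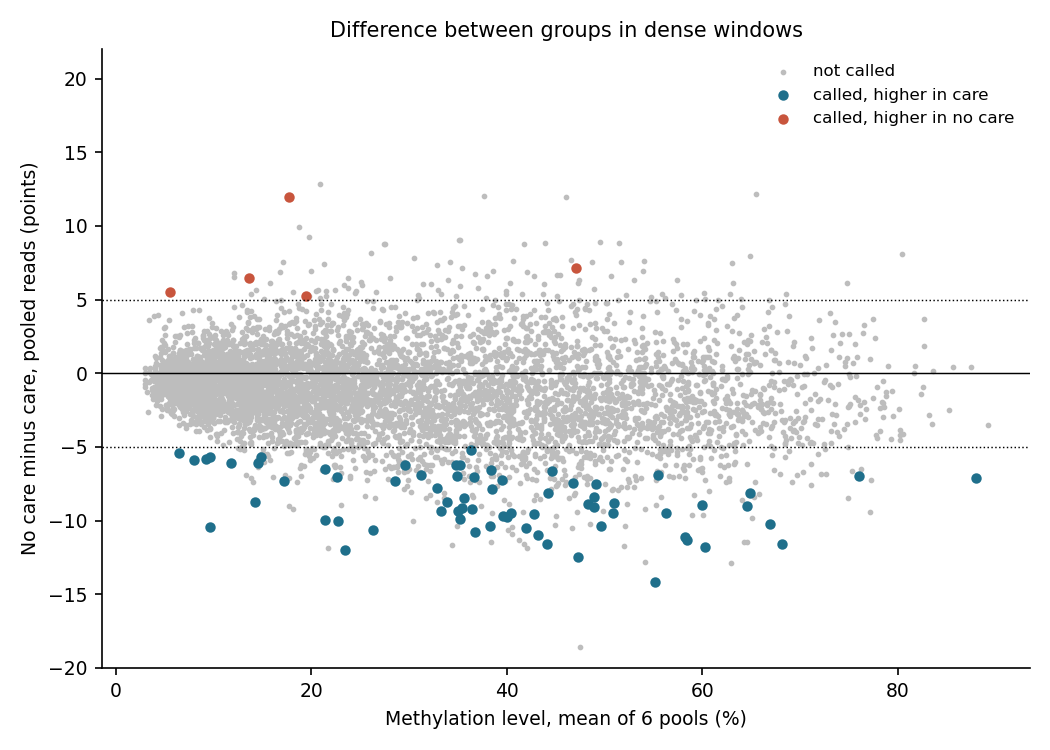
Difference between the groups (no care minus care, percentage points of pooled reads) against the mean level of the 6 pools for all 6079 dense windows, with the 68 called windows higher in care in blue, the 5 higher in no care in red, the rest in grey and dotted lines at 5 points either way. The cloud of grey points lies mostly below 0, and the called windows are spread over levels from 5.50% to 88.0%.

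The called window that kept its call lay on scaffold78.2 from 3223601 to 3223800. It is within a gene model whose fly ortholog is CG6565 in the study's annotation. Its 16 CpGs had levels of 41.9%, 45.1% and 46.7% in care pools 1, 2 and 3 and 38.0%, 32.6% and 33.0% in no care, on 396 to 851 reads per pool. The groups did not overlap, and all 16 CpGs were lower in no care. The difference was -9.70 points (logistic regression, adjusted p = 5.00e-05), between -11.8 and -8.51 points with a pool left out, with an adjusted p of at most 0.00603. Along its 200 bases the window climbed from 9.6% in care and 6.3% in no care at base 3 to 87.7% and 84.7% at base 111, and came down to 22.7% and 10.7% at base 194. The largest gap between the groups, 22.6 points, was at base 73, where care stood at 66.9% and no care at 44.4%.

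On scaffold267 from 161401 to 161600 a window of 13 CpGs had the smallest p among called windows without overlap. Its levels were 48.2%, 46.0% and 54.2% in care and 44.4%, 34.7% and 31.9% in no care, on 310 to 620 reads per pool. No care pool 1 stood close to the care pools, and without no care pool 3 the adjusted p was 0.0113. The difference was -11.0 points (logistic regression, adjusted p = 5.00e-05), and 12 of the 13 CpGs were lower in no care. The 3 widest gaps were at bases 170, 179 and 183, at 27.5, 20.3 and 23.9 points.

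A window of 12 CpGs on scaffold92.2 from 416601 to 416800 had levels of 46.2%, 51.8% and 42.5% in care and 36.5%, 38.4% and 41.4% in no care. The highest no care pool came close to the lowest care pool, so the groups barely separated. The difference was -9.59 points (logistic regression, adjusted p = 5.00e-05), and without care pool 2 it was -5.62 points with an adjusted p of 0.192. The window directly before it, with 14 CpGs, was called as well, by -7.81 points (adjusted p = 6.37e-04).

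On scaffold48.2 from 677201 to 677400 a window of 14 CpGs had levels of 47.5%, 47.7% and 46.4% in care and 38.7%, 36.4% and 35.2% in no care. The gap between the groups was wider than the range within either one, and the chi-square per degree of freedom was 0.338. The difference was -10.5 points (logistic regression, adjusted p = 9.60e-05), and it was at least 9.86 points in size whichever pool was left out, with an adjusted p of 0.0153 without care pool 2. Of its CpGs 13 were lower in no care. The exception was the last, at base 197, with 73.9% in care and 86.3% in no care. That care mean rests on care pool 1, at 40% on 5 reads, while care pools 2 and 3 stood at 89.3% and 92.3%.

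In the other direction, 1 called dense window had no overlap. This was a window of 14 CpGs on scaffold127.2 from 26201 to 26400, with levels of 7.55%, 13.6% and 12.3% in care and 17.5%, 21.6% and 33.5% in no care. All 14 CpGs were higher in no care, by 2.6 to 24.1 points. The difference was 11.97 points (logistic regression, adjusted p = 0.00120), on as few as 73 reads in care pool 3, and without no care pool 3 it was 7.91 points with an adjusted p of 0.0754. The second highest of all dense windows in level, on scaffold293.2 from 279801 to 280000, was also called. Its levels were 87.1%, 92.7% and 95.1% in care and 82.3%, 84.2% and 86.7% in no care, a narrow separation (adjusted p = 0.00951, logistic regression).

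**Figure D5:**
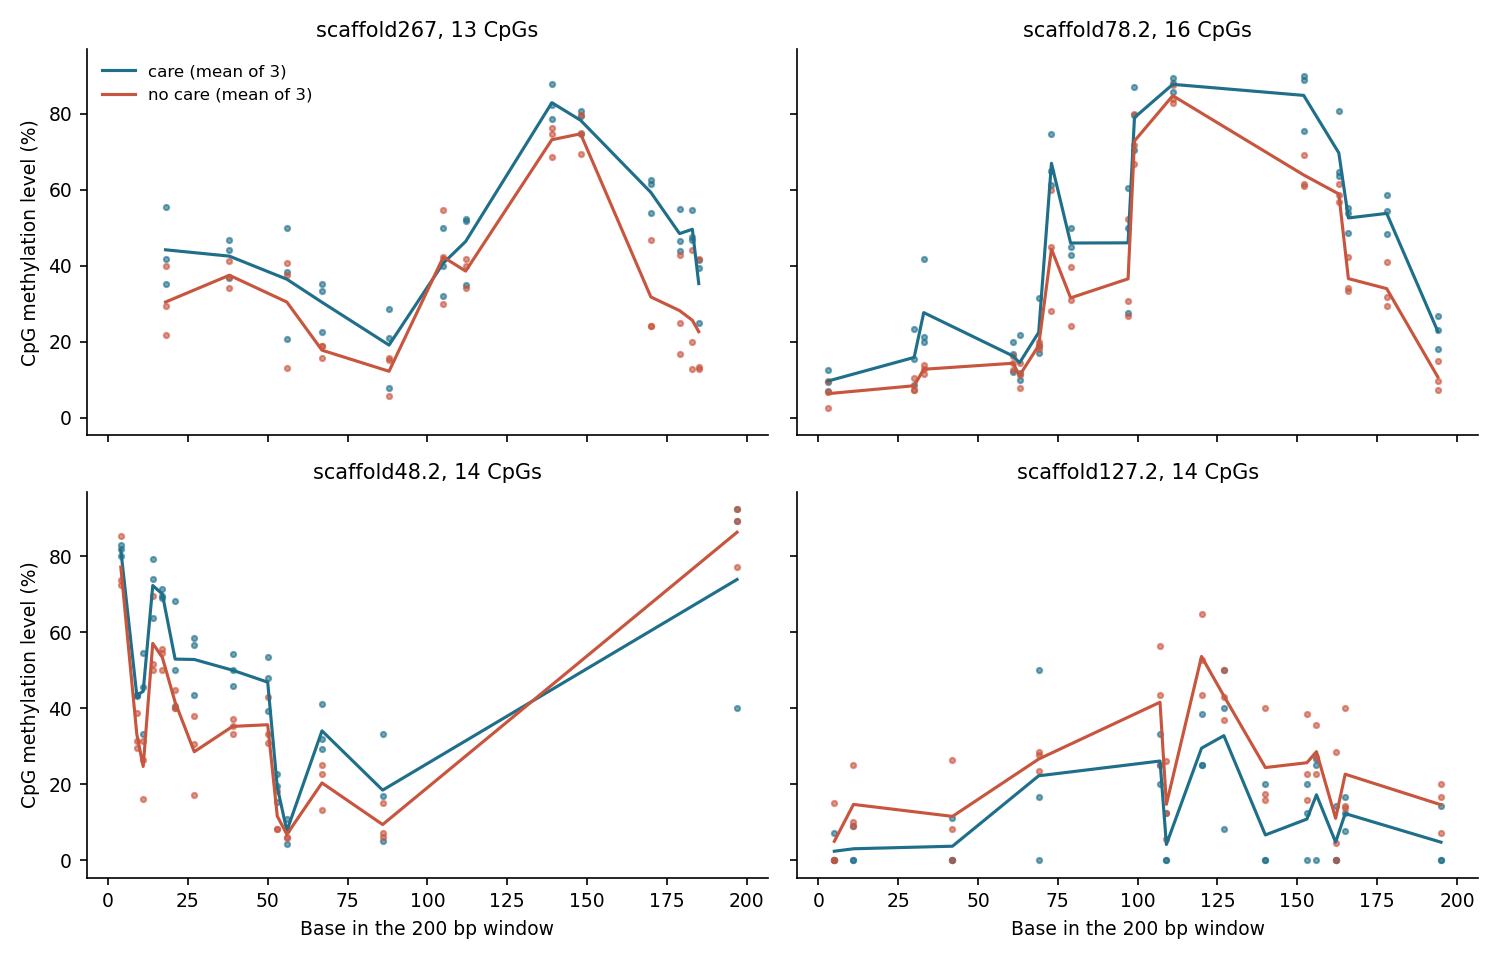
Methylation level of each CpG (points for single pools, lines for the mean of 3 care pools in blue and 3 no care pools in red) against the base within the 200 bp window, for 3 called dense windows higher in care, on scaffold267, scaffold78.2 and scaffold48.2, and for the 1 on scaffold127.2 that was higher in no care. Both groups follow the same profile, with the lines apart at most CpGs: all 16 on scaffold78.2, 12 of 13 on scaffold267 and 13 of 14 on scaffold48.2 were lower in no care.

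Over the 73 called windows, 56 had no overlap, 55 of them higher in care. They lay on 42 scaffolds. In those higher in care the median difference was -8.79 points and the extremes were -14.2 and -5.22. In those higher in no care the median was 6.49 points and the extremes were 5.25 and 11.97. The change involved most CpGs of a window, with 839 of 961 (87.3%) on the side of their window and 17 windows in which every CpG was. Of the 128 tested windows beside one called higher in care that were not called themselves, 106 were lower in no care (82.8%, against 67.9% of all dense windows and 57.9% of the others), and their median difference was -2.57 points (-1.07 over all dense windows). These values come from the contrast that made the calls and are given as a description.

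Gene models could be placed on 2 scaffolds, scaffold39.2 and scaffold78.2, for which the study's annotation lists 361 and 376 models. Models cover 88.1% and 86.7% of the bases of these scaffolds, and 124 of 129 and 203 of 208 dense windows touched one, with 96.0% and 95.5% of the other tested windows doing so. A dense window was found on 163 models, and 18 models had at least 5. Most of these models were expressed in the heads: 142 of the 163 (87.1%) had a mean of at least 1 CPM (RNA counts scaled to the library total) over the 6 RNA pools, against 317 of the 574 models without a dense window (55.2%). The 574 include any models that held only sparser tested windows, and these are not given apart. The median span was 5347 bases with a dense window and 5809.5 without. Whether the length of a model goes with dense windows was not tested. The most, 17 dense windows with 220 CpGs at 10.4% to 53.0%, were on the ortholog of fly okr, which codes for a DNA repair protein of the RAD54 type. The ortholog of Rh3, an opsin that senses ultraviolet light in the fly eye, had 6, at 7.54% to 41.6%.

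All 10 called dense windows on these scaffolds are given here with their models, which were picked by position after the calls were known. On scaffold39.2 a window on the ortholog of RpLP0, a protein of the large ribosomal subunit, had levels of 66.5%, 71.3% and 67.7% in care and 59.5%, 64.8% and 57.7% in no care, without overlap (adjusted p = 0.00106, logistic regression). A window on the ortholog of PI31, a regulator of the proteasome, had 38.4%, 42.5% and 38.2% in care and 30.4%, 29.6% and 32.5% in no care, also without overlap (adjusted p = 4.24e-04, logistic regression). The groups lay well apart on PI31, while on RpLP0 the highest no care pool came close to the lowest care pool.

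On scaffold78.2 a pair of adjoining windows was called on the ortholog of Got1, an aspartate aminotransferase. In the second of them, from 34001 to 34200, the levels were 50.3%, 56.6% and 58.0% in care and 45.7%, 45.4% and 49.5% in no care, without overlap, while in the first care pool 1 fell below no care pool 1. A window of low level on the ortholog of Mlc2, a myosin light chain of muscle, had 11.97%, 14.1% and 10.3% in care and 4.98%, 5.65% and 10.6% in no care, and the groups overlapped. The others higher in care lay on both scaffolds. These were a window on CG6565 (above), 1 on a model without a fly symbol and 1 at a position without a model. Another of them, also higher in care, was on 2 overlapping models, of which 1 is the ortholog of CG1677. The window higher in no care lay on scaffold39.2, from base 3079001. It was on 2 overlapping models, the orthologs of CG17712 and of CdsA, an enzyme that makes CDP-diacylglycerol for lipid synthesis. Its levels were 14.2%, 10.2% and 7.38% in care and 18.5%, 19.3% and 12.2% in no care. Its groups overlapped.

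RNA levels of the models on called windows went both ways. Of 11 such models, 10 had a mean of at least 1 CPM, and in 5 of these the care and no care RNA pools did not overlap, where 41.7% of the 9194 gene models at that level did not. For Got1 the levels were 247, 223 and 251 CPM in care and 166, 175 and 167 in no care. For PI31 they were 248, 222 and 247 CPM in care and 181, 173 and 173 in no care. In both the RNA was higher in care, as was the methylation of the called windows. For CdsA the RNA levels were 796, 720 and 756 CPM in care and 802, 881 and 907 in no care, again the side on which its called window was higher, while CG17712 had no RNA counts in any pool. The other 2 models without overlap have no fly symbol, and their RNA was higher in no care (8.60 against 6.92 and 33.0 against 18.2 mean CPM) while their called windows were higher in care. For RpLP0 the levels were 916, 792 and 936 CPM in care and 719, 845 and 959 in no care, and these overlapped. Among the 142 expressed models with any dense window, 59 had no overlap of RNA pools (41.5%), close to the share of all models. The RNA came from other bees than the DNA, and no link between the measures was tested.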

How the data were processed

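Bisulfite sequencing of 6 pools (3 care, 3 no care, grouped by the sample titles) is described. Per the study's methods and the submitters' processing notes, the authors trimmed reads with Trimmomatic 0.32, aligned them with Bismark 0.14.5 to assembly v1.1, removed duplicates, merged the strands and listed CpGs methylated above the lambda background in at least 1 pool. Each deposited file gives a CpG's read count (coverage) and the percent of those reads that the authors scored as methylated or unmethylated, without normalization. The RNA counts per gene model were also made by the authors (Trimmomatic, TopHat, featureCounts, no normalization) and were used here solely as CPM (counts scaled to the library total).

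Methylated reads were recovered as percent times coverage and were whole within 0.001. Of 278132 listed CpGs, 273427 had coverage of 1 to 170 in every pool. Every 200 bp window holding 2 or more CpGs was compared by a logistic regression on the pooled reads of each group (likelihood ratio test, no overdispersion) with Benjamini-Hochberg adjustment over 45303 windows, and called at an adjusted p below 0.01 and a difference above 5 percentage points. The windows, the adjustment and both thresholds follow the study's methods, which name MethylKit, and the form of the test was chosen here. Differences are no care minus care. Window levels averaged over pools were compared by exact permutation over the pools. Alternatives were an overdispersion for each window or shared by all, limma 3.58.1 in R 4.3.3 on logit levels (0.5 added to both read counts), the replicate number as a block, centred libraries, a coverage of at least 5 or without upper limit, a grid shifted by 100 bases, dense windows of at least 8 or 12 CpGs, other thresholds and each pool left out. The scripts (Python 3.11.15, numpy 2.4.6, scipy 1.17.1, pandas 2.3.3) were tested on simulated data. Reads of a pool are not independent bees, so intervals cover counting error alone.

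The rule for dense windows, the tests and the rule for named windows were chosen with earlier results of these data known. Named were the called windows without overlap with the smallest adjusted p (up to 4 a direction), the 3 with the most CpGs, the 2 highest and 2 lowest levels, the 2 longest runs and the 2 with the largest spread; gene models off these windows were named after their values were seen. Positions and fly orthologs of gene models come from the study's annotation table, read for the 2 scaffolds it lists whole here. No genome of the build was used, so no sequence is shown.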

Additional observations from a re-analysis of the deposited data

How the results depend on the processing

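The difference in level between no care and care over dense windows was negative under every alternative run, between -1.16 and -0.879 points, and between -1.26 and -0.881 with a pool left out. The excess of dense over other windows (2.13 points) reversed to -0.0862 with single CpG levels averaged. It was 3.59 with dense windows of at least 8 CpGs, 1.28 with at least 12, 3.27 with a coverage of at least 5, and 2.08 to 2.21 with a pool left out, where 5 pools cannot give a p below 0.0625. In place of 73 calls, 0 were made with an overdispersion in each window or with limma (260 and 92 dense windows at an unadjusted p below 0.05), 8 with one overdispersion, 48 with centred libraries (45 of them among the 73), 18 at a difference above 10 points, and 194 at an adjusted p of 0.05. With a pool left out there were 25 to 75 calls. With the replicate block there were 66 calls, 53 of them among the 73. Deviations of same-numbered pools correlated at 0.0124 to 0.0200, and each pool correlated best with its own number. Whether the numbers pair the pools cannot be told from such small values. The median chi-square per degree of freedom (1.45) was 1.38 with dense windows of at least 8 CpGs, 1.55 with at least 12, 1.47 on the shifted grid and 1.35 to 1.39 with a pool left out. The share of dense windows beside another (68.2%) was 74.9% and 61.2% at 8 and 12 CpGs. The cause of these moves was not tested. Of dense windows with 500 to 1000 reads, 0 of 376 were called, beside 14 of 9048 other windows (0.155%). At so low a share, 376 windows are too few to tell which kind is called more often.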
